A study of Homo sapiens with 3 samples.

Results

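The genes described here encode the human proteasome and the proteins named after it. They were chosen by symbol: every protein-coding row of the count table whose symbol starts with PSMA, PSMB, PSMC, PSMD, PSME, PSMF or PSMG followed by a digit, which gave 50 of 58735 genes. Of these, 48 reached 1 CPM, a count scaled by library size, in some library. The other two, PSMA8, an alpha subunit of the testis proteasome, and PSMB11, the catalytic subunit of the thymus proteasome, had 0 counts in all 3 libraries, which allows up to 3 counts in each. A pair of symbols that the rule takes in belong to no proteasome subunit: PSMC3IP, also called HOP2, acts in meiotic recombination, and PSME3IP1 binds the activator PSME3.

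The cells were HaCaT, a line of immortalised human epidermal keratinocytes labelled wild type, and all 3 libraries come from this 1 line. There was 1 library in each of 3 groups: cells given carbon black particles (CB) at 25 µg/mL, cells given the particulate sample S1650b at 50 µg/mL, and cells labelled as exposed to none (control). Exposure lasted 24 h in medium without serum for the particle groups, and the doses of CB and S1650b differ. With 1 library a group, treatment and library cannot be told apart, no difference has a replicate check, and no p-value is given.

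The proteasome is the barrel-shaped protease that degrades most proteins tagged with ubiquitin in the cytosol and nucleus. Its 20S core is a stack of rings: outer rings of alpha subunits gate the entry, and inner rings of beta subunits hold the active sites formed by PSMB5, PSMB6 and PSMB7. The 19S cap, built of the PSMC ATPases and most of the PSMD proteins, binds ubiquitin chains, unfolds the substrate and feeds it into the core. Interferon gamma induces the replacement beta subunits PSMB8, PSMB9 and PSMB10, which form the immunoproteasome, and the activator PSME1 with PSME2, known as PA28. When proteasomes are inhibited, mammalian cells raise the transcription of the standard subunits as a set through the factor NRF1, encoded by NFE2L1.

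The libraries were of like depth, between 20417744 and 20946139 counts. All levels below are CPM corrected by TMM factors (scaled CPM), a unit for comparing 1 gene between libraries. A fold is the ratio of scaled CPM with its 95% interval in parentheses, which covers counting error only. Called genes have a fold of 1.5 or more, in the direction named, and an interval on that side of 1. The 8 keratinocyte markers all exceeded 1 CPM in each library, with summed scaled CPM of 12911 in CB and 6265 in S1650b, against 13963 in the control. KRT5, KRT14, SFN and KRT6A were lower in S1650b than in the control, and KRT17, TP63, DSG3 and ITGA6 were higher. Markers of other cells had lower sums: 3 of 6 fibroblast markers reached 1 CPM, with sums of 30.2 in CB and 12.9 in S1650b, against 93.2 in the control. DCN had 7.61 in CB and 1.84 in S1650b, against 54.2 in the control. COL3A1 had 16.9, 3.72 and 32.4 in the same order, and COL1A1 5.27, 6.98 and 6.10. For 5 endothelial markers, 2 of which reached 1 CPM, the sums were 27.7, 44.0 and 54.8 in the same order, and for 4 melanocyte markers, 1 of which did, 3.38, 2.64 and 5.18. Most of the endothelial sum came from CDH5, with 25.0 in CB and 41.2 in S1650b, against 51.5 in the control. KDR, TYR, DCT and CD68 had 0 counts in every library. In bulk RNA, fewer cells of a type and less RNA per cell cannot be told apart.

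Promoter sequences are shown for the inducible members because 4 of their 5 promoters hold 1 identical run of letters. Those of 4 standard subunits are shown too, out of 7 found to carry the core of the element that NRF1 and NRF2 bind. RefSeq gives 55 promoter windows (GRCh38.p14, 250 bases before to 50 bases after the start) for 44 of the 50 genes. The interferon-stimulated response element, searched as GAAANNGAAA on both strands, was found in 12.7% of these windows and in 3.57% of all 35116 promoter windows. Among the genes with a window it was held by 4 of 5 inducible genes (PSMB8, PSMB10, PSME1 and PSME2) and by 2 of 27 standard subunits. In these 4 inducible genes, and in PSMG4, a chaperone of 20S assembly, the letters were GAAAGCGAAA or its reverse complement TTTCGCTTTC. That exact run, chosen after the matches were seen, occurs in 35 of the 35116 windows (0.0997%) and in 0 of 27 standard subunits. PSMB9, the fifth inducible gene, has no match to GAAANNGAAA in its window. The 210 bases from 180 before to 30 after the start follow, 5′ to 3′ on the gene's strand, for PSMB8 (chr6:32844018-32844227, minus strand), PSMB10 (chr16:67936821-67937030, minus), PSME1 (chr14:24136014-24136223, plus) and PSME2 (chr14:24146581-24146790, minus). Capitals mark the interferon element, whose first base lies at -4, -21, 5 and -28 from the start base in that order of genes. For PSMB8 the element was found in 1 of its 2 windows.
PSMB8: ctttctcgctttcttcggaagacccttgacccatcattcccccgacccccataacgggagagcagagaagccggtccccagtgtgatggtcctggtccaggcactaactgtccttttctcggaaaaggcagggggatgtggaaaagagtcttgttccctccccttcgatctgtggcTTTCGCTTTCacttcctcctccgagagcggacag
PSMB10: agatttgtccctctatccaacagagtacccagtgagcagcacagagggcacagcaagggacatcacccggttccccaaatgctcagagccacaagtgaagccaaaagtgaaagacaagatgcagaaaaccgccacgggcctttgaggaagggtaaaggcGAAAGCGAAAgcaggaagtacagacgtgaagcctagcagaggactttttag
PSME1: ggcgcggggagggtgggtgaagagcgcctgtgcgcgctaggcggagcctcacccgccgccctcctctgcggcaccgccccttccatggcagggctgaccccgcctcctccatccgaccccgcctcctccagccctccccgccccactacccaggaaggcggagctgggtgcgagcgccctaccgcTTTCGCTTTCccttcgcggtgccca
PSME2: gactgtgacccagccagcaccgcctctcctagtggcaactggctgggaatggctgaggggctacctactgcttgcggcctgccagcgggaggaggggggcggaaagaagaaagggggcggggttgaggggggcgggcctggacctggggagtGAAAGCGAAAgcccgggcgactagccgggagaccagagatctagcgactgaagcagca

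The antioxidant response element core was searched as TGACNNNGC on both strands. It was found in 27.3% of the members' windows and in 13.3% of all windows, and 15 member genes held it: 7 of 27 standard subunits, 3 of 5 inducible genes, and PSMD5, PSMD9, PSME4, PSMG1 and PSMG2. PSMA4, PSME1 and PSME2 held both elements. Capitals mark the core in PSMB9 (chr6:32854012-32854221, plus strand), PSMA4 (chr15:78540606-78540815, plus, 1 of its 3 windows), PSMB3 (chr17:38752561-38752770, plus), PSMD12 (chr17:67366548-67366757, minus) and PSMD3 (chr17:39980627-39980836, plus).
PSMB9: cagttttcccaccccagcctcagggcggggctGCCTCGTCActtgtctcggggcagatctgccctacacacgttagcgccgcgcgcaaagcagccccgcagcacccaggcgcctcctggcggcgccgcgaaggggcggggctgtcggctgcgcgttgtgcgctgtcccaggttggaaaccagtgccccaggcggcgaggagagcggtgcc
PSMA4: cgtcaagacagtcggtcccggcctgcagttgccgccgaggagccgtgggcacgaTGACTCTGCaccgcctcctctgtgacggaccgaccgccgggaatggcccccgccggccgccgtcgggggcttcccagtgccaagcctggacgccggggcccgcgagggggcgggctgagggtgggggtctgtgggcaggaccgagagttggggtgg
PSMB3: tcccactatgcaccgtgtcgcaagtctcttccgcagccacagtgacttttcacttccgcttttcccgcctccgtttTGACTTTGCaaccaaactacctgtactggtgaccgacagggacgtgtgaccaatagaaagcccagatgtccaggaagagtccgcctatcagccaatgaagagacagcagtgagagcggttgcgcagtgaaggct
PSMD12: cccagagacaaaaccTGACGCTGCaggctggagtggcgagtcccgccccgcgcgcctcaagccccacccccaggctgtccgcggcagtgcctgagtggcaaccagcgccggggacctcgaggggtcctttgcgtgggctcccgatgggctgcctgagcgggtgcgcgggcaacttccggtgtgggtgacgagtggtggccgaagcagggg
PSMD3: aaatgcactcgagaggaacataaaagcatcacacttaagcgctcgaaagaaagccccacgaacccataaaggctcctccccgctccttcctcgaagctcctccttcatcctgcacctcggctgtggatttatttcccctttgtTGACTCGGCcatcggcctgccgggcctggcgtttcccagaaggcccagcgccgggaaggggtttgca
A run of matching letters is a description of the window. Of other elements, CCAAT was found in 43.6% of the members' windows and 34.6% of all windows, the xenobiotic response element core GCGTG in 41.8% and 36.5%, and the gamma-activated site TTCNNNGAA in 14.5% and 7.66%.

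Levels are compared between genes in the deposited FPKM, which divide by gene length. PSMA7, a subunit of the outer ring, had the highest FPKM of the set in every library, 372 in CB, 176 in S1650b and 279 in the control. The beta ring, whose subunits stand in equal number in the complex, lay between 60.4 (PSMB1) and 257 (PSMB7) in CB, between 30.3 (PSMB2) and 144 (PSMB7) in S1650b, and between 53.9 (PSMB1) and 211 (PSMB7) in the control. The alpha ring spread more widely. PSMA2 was listed at 0.749 in CB, 0.973 in S1650b and 0.586 in the control, and PSMA6 at 1.23 in CB, 0.641 in S1650b and 0.815 in the control, far below the rest of their ring. Of their exon length, 34.6% (PSMA2) and 14.1% (PSMA6) overlaps exons of other genes, and the levels and folds of both are uncertain. Genes with counts whose spans overlap theirs are MRPL32 and AC010132.3 for PSMA2 and AL121594.1 for PSMA6. PSMD9, a chaperone of 19S assembly with 22.6% overlap, was the next lowest at 1.75 in CB, 1.16 in S1650b and 1.46 in the control. Among the inducible subunits the control library held 66.9 FPKM of PSMB8, 71.2 of PSMB9 and 47.1 of PSMB10, so all 3 were transcribed at levels within the range of the standard 19S subunits.

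**Figure D1:**
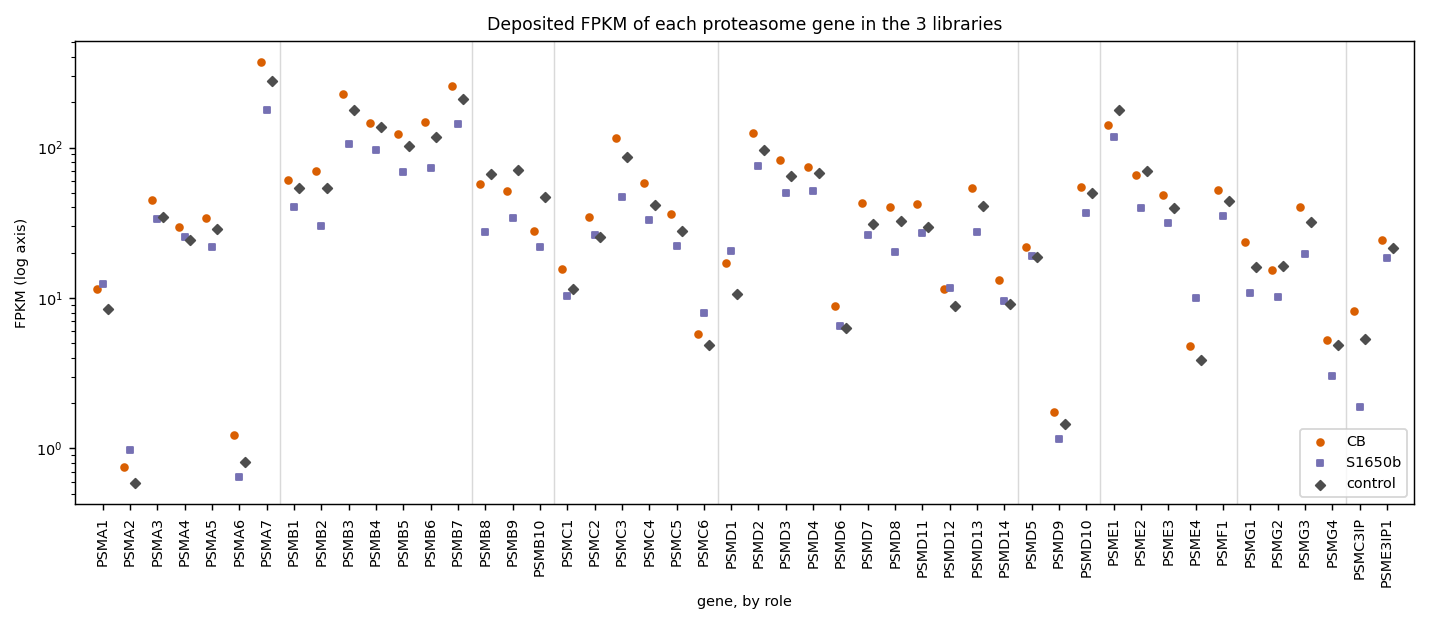
Deposited FPKM (log axis) of the 48 proteasome genes with at least 1 CPM in a library, ordered by role, with 1 point for each library. CB points sit above the other two for most standard subunits, control points sit on top for PSMB8, PSMB9, PSMB10, PSME1 and PSME2, and PSMA2 and PSMA6 lie apart near 1 FPKM.

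In CB, transcripts of the standard proteasome were slightly higher than in the control and those of the inducible set were lower. All 31 standard subunits measured (alpha, beta, ATPase and non-ATPase) had folds above 1, between 1.01 (PSMB4) and 1.51 (PSMD1), and 28 of these intervals lay above 1. The interval lay above 1 for 26.6% of all genes tested and for 43.6% of 4449 protein-coding genes of like level. Summed over the standard subunits, scaled CPM was 6192 in CB and 5119 in the control, a fold of 1.21 (1.2 to 1.22). The 5 inducible genes went the other way, with a sum of 833 in CB and 1081 in the control, a fold of 0.770 (0.755 to 0.786). Most of these differences are small: 1 of 48 members was called higher and 1 lower, where 4.70% of the 14709 genes tested were called higher and 10.7% lower.

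Read as a set, 42 of 48 members had a fold above 1, against 49.6% of all genes tested and 60.2% of the genes of like level. Their median log2 fold was 0.25, against -0.01 for all genes and 0.06 for the genes of like level. At a looser threshold, log2 fold of 0.32 or more and an interval clear of 1, 14 members were higher and 3 lower. By that rule 13.0% of all genes were higher and 17.5% lower, and at like level 14.4% and 9.71%. The background at like level was chosen after the data were seen, as the protein-coding genes with a mean between 39.6 and 260.7 scaled CPM.

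PSMD1 (ENSG00000173692, chr2:231056864-231172827, plus strand, GRCh38), a scaffold protein of the cap's base, was the 1 member called higher. It had 84.5 in CB and 108 in S1650b, against 55.9 in the control scaled CPM, from 1699, 2415 and 1099 counts. Its fold in CB was 1.51 (1.4 to 1.63), at the edge of the threshold, and 0 members were called higher with upper quartile scaling, with a filter of 5 CPM or with the GC trend removed. Among the other cap subunits, PSMD14, the deubiquitinase that strips ubiquitin from the substrate, had 97.7 in CB and 73.9 in S1650b, against 70.9 in the control and a fold of 1.38 (1.29 to 1.48). PSMD11, a lid subunit, had 289 in CB and 196 in S1650b, against 215 in the control and a fold of 1.34 (1.29 to 1.4). The cap's CB values exceeded both other libraries for PSMD14 and PSMD11, while PSMD1 was higher still in S1650b.

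The 6 ATPases that form the unfolding ring all had intervals above 1 in CB, between 1.13 for PSMC6 and 1.33 for PSMC4. PSMC4 had 133 in CB and 79.5 in S1650b, against 100.1 in the control scaled CPM. In the alpha ring the highest fold with an interval clear of 1 belonged to PSMA6, 1.44 (1.11 to 1.86), from 154 counts in CB and 105 in the control, and the lowest to PSMA5, 1.13 (1.08 to 1.19). The beta ring ran between 1.01 (0.976 to 1.05) for PSMB4 and 1.23 (1.18 to 1.27) for PSMB2. PSMD4, the ubiquitin receptor Rpn10, stood at 1.03 (0.989 to 1.08), so PSMB4 and PSMD4 did not differ from the control beyond counting error. PSMB4 was below 1 with upper quartile scaling.

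The folds below 1 in CB belonged to the inducible genes and to PSMG2, a chaperone of 20S assembly at 0.896 (0.821 to 0.977). PSMB10 (ENSG00000205220, chr16:67934502-67937087, minus strand), the inducible trypsin-like subunit, had 49.2 in CB and 40.7 in S1650b, against 87.9 in the control. It was 1.79-fold lower (1.65 to 1.93) in CB, the 1 member called lower. PSMB9 (ENSG00000240065, chr6:32844136-32859585, plus strand), the inducible subunit that replaces PSMB6, had 151 in CB and 106 in S1650b, against 220.4 in the control. In CB it was 1.46-fold lower (1.39 to 1.53), just short of the threshold. PSMB8 (ENSG00000204264, chr6:32840717-32844703, minus strand), the inducible chymotrypsin-like subunit, had 165 in CB and 83.4 in S1650b, against 202 in the control and was 1.22-fold lower (1.17 to 1.28). The 3 genes were thus lower in CB and in S1650b than in the control, in CB by unequal amounts.

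The PA28 subunits PSME1 and PSME2 lie close together on chromosome 14. PSME1 had 241 in CB and 212 in S1650b, against 319 in the control scaled CPM and was 1.32-fold lower (1.27 to 1.37) in CB. PSME2 had 226 in CB and 142 in S1650b, against 252 in the control and was 1.11-fold lower (1.07 to 1.16). The interferon-independent nuclear activator PSME3 differed from them in sign, with 241 in CB and 205 in the control, a fold of 1.17 (1.13 to 1.23). PSMF1, the PI31 protein first described as a proteasome inhibitor, had a fold of 1.12 (1.07 to 1.16).

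**Figure D2:**
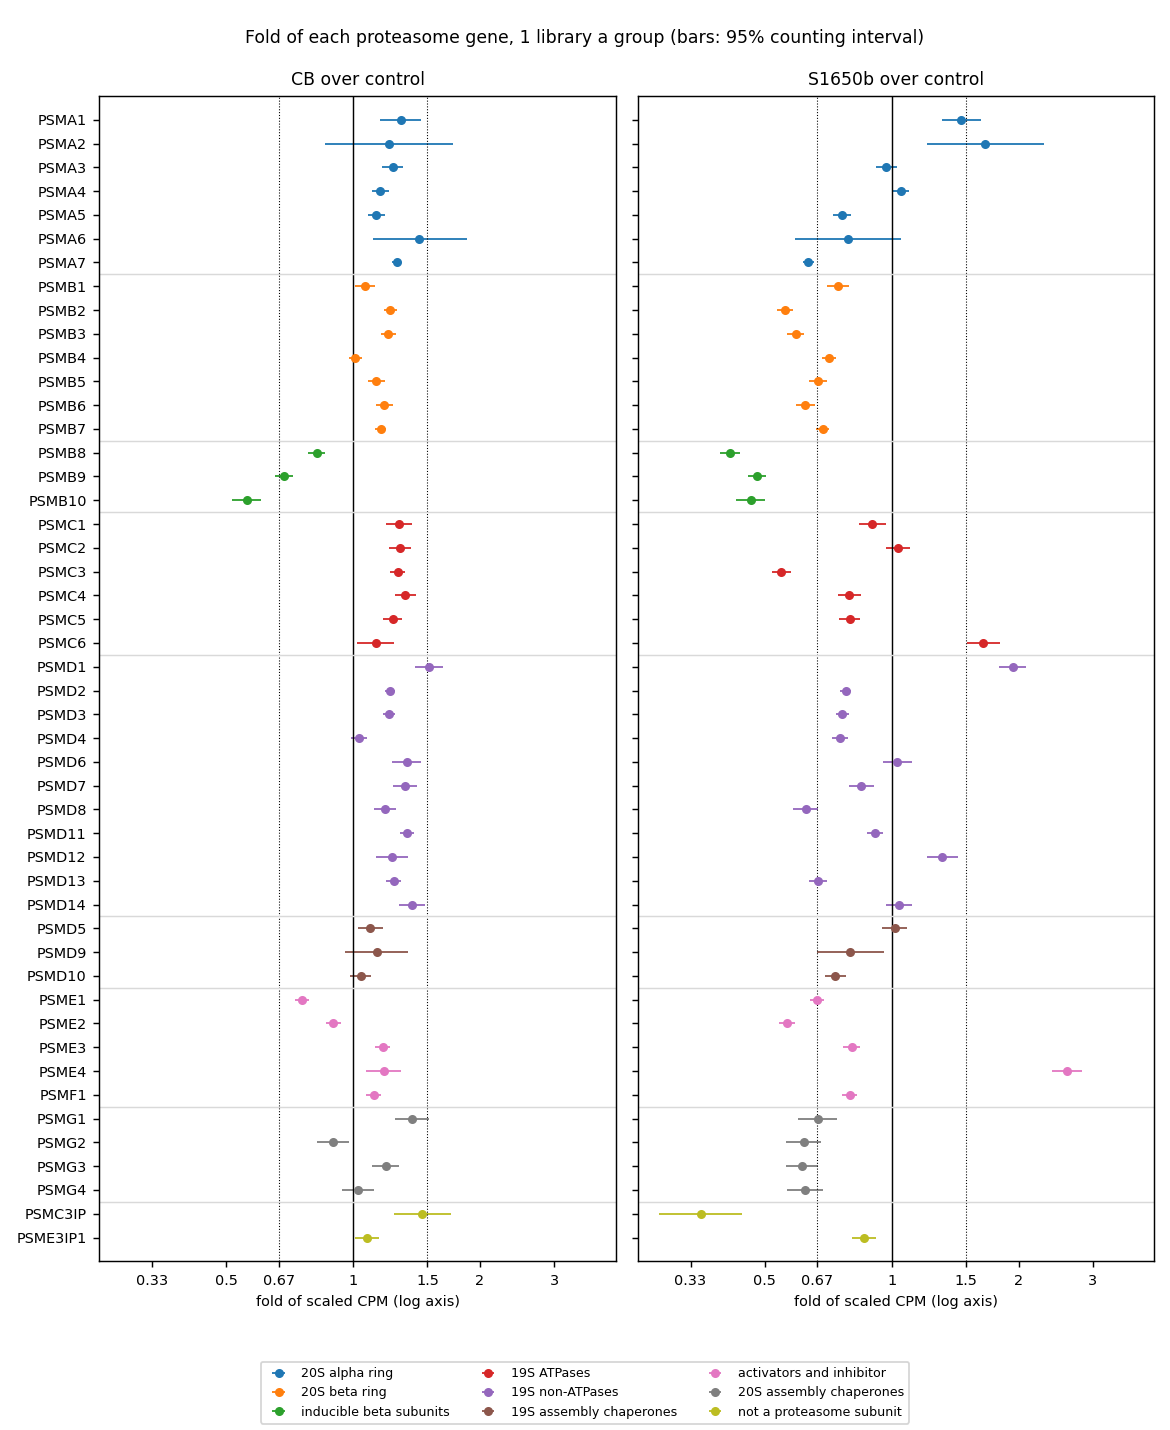
Fold of scaled CPM (log axis) for each of the 48 proteasome genes in CB over control (left) and S1650b over control (right), coloured by role. Points are folds of 1 library over 1 library, bars are 95% counting intervals, the solid line marks 1 and dotted lines mark a fold of 1.5 in each direction. On the left nearly all standard subunits lie between 1 and 1.5 and the inducible genes lie below 1, and on the right most genes lie below 1 with PSME4, PSMD1, PSMA2 and PSMC6 beyond 1.5.

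In S1650b most proteasome transcripts were lower than in the control, and a few were much higher. The whole beta ring was below 1, all 5 inducible genes were called lower, and PSME4, PSMD1, PSMA2 and PSMC6 were called higher. Summed over all 50 genes, scaled CPM was 5376 in S1650b and 7221 in the control, 1.34-fold lower (1.33 to 1.35). In all, 4 of 48 members were called higher and 15 lower, where 22.0% of all genes tested were called higher and 19.4% lower. Of the genes of like level 13.5% were called higher and 22.3% lower.

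The median log2 fold of the members was -0.39, against -0.04 for all genes tested and -0.22 for the genes of like level. Of the 48, 37 had a fold below 1, as did 52.1% of all genes and 64.7% of the genes of like level. Fold and exon length moved together in this comparison, as described further on. With the trends of fold with length and GC content removed, 3 members were called higher and 9 lower, where 16.1% of all genes were called higher and 16.0% lower, and the median was -0.27. Of the genes of like level 5.87% were then called higher and 17.9% lower, so the members' shares of calls lay near theirs. Of the 48, 41 then had a fold below 1, against 64.8% of the genes of like level. The calls held both with and without the trends were 2 of the 4 higher and 5 of the 15 lower, and PSMA5, PSMA6, PSMD6 and PSMD14 were called lower only with the trends removed.

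The beta ring was lower in S1650b in 7 of 7 subunits, with intervals below 1 in each and a sum of 1065 in S1650b against 1629 in the control, 1.53-fold lower (1.5 to 1.55). An interval below 1 was held by 39.2% of all genes tested and by 58.7% of the genes of like level. PSMB2 had 324 in CB and 148 in S1650b, against 265 in the control scaled CPM and was 1.79-fold lower (1.71 to 1.87). PSMB3 had 256 in CB and 125 in S1650b, against 211 in the control and was 1.69-fold lower (1.61 to 1.77). PSMB6, the caspase-like active site, had 204 in CB and 107 in S1650b, against 172 in the control and was 1.6-fold lower (1.52 to 1.69). These 3 were the subunits of the ring called lower, and each had its highest value in CB. PSMB5, with the chymotrypsin-like site that drugs such as bortezomib block, had 208 in CB and 123 in S1650b, against 183 in the control and a fold of 0.67 (0.637 to 0.704), just short of a call. PSMB7, the trypsin-like site, had 441 in CB and 260.3 in S1650b, against 379 in the control and a fold of 0.686 (0.663 to 0.711). With both trends removed, PSMB2 alone of the ring stayed called, at 0.48, and the folds of PSMB3 and PSMB6 were 0.83 and 0.897.

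The alpha ring was split. PSMA7 had 623 in CB and 312 in S1650b, against 492 in the control scaled CPM and was 1.58-fold lower (1.53 to 1.63) in S1650b. PSMA1, in contrast, had 36.3 in CB and 41 in S1650b, against 28 in the control and a fold of 1.46 (1.32 to 1.63). PSMA2 was called higher at 1.66 (1.21 to 2.3), on 117 counts in S1650b and 62 in the control. The folds of PSMA3, PSMA4, PSMA5 and PSMA6 were 0.971, 1.05, 0.762 and 0.788, so members of 1 ring lay on both sides of 1. With the trends removed PSMA1 (1.57) was called higher, PSMA5 (0.539) and PSMA6 (0.537) lower, and PSMA2 and PSMA7 were not called.

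Among the ATPases, PSMC3, known as Rpt5, had 252 in CB and 108 in S1650b, against 198 in the control scaled CPM and was 1.83-fold lower (1.74 to 1.92). PSMC6, known as Rpt4, had 41.4 in CB and 60.4 in S1650b, against 36.6 in the control and a fold of 1.65 (1.51 to 1.81). The other 4 lay between 0.794 (PSMC4) and 1.03 (PSMC2). With both trends removed neither was called, PSMC3 at 0.798 and PSMC6 at 1.06.

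In the rest of the cap, PSMD1 had a fold of 1.94 (1.8 to 2.08) in S1650b, the largest of the standard subunits under the main scaling, and it stayed called with both trends removed at 1.67. PSMD8, a lid subunit, had 120.2 in CB and 63.1 in S1650b, against 101 in the control scaled CPM and was 1.6-fold lower (1.49 to 1.71), though its trend-free fold was 0.87. PSMD13, another lid subunit, had 245 in CB and 131 in S1650b, against 196 in the control and a fold of 0.668 (0.636 to 0.701), just short of a call. PSMD12, also of the lid, had 58.9 in CB and 63.1 in S1650b, against 47.8 in the control and a fold of 1.32 (1.21 to 1.44), which lay at 0.957 once the trends were removed. The 11 non-ATPase subunits divided into 4 with folds above 1 and 7 below, and the 7 intervals of the lower ones excluded 1.

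The 5 inducible genes were all called lower in S1650b. Their sum was 584 in S1650b and 1081 in the control, 1.85-fold lower (1.81 to 1.89). PSMB8 was 2.42-fold lower (2.29 to 2.56), PSMB10 2.16-fold lower (1.99 to 2.34) and PSMB9 2.09-fold lower (1.99 to 2.2). PSME2 was 1.77-fold lower (1.7 to 1.85) and PSME1 1.5-fold lower (1.45 to 1.56), PSME1 at the edge of the threshold. With the trends removed all 5 folds stayed below 1, between 0.534 (PSMB9) and 0.935 (PSME1), and PSMB8 and PSMB9 were still called. Immune cells are rich in these genes, and their markers were near 0 here: PTPRC, CD3E, CD14, LYZ and CD68 together summed to 1.24 scaled CPM in CB and 1.21 in S1650b, against 1.93 in the control. The fibroblast sum was also lowest in S1650b, and its part in the result was not tested.

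PSME4 (ENSG00000068878, chr2:53864067-53970840, minus strand), known as PA200, is a large nuclear activator that caps the 20S core in place of the 19S cap and is tied to acetylated histones. It had 47.2 in CB and 104 in S1650b, against 39.9 in the control scaled CPM. Its fold in S1650b was 2.61 (2.4 to 2.83), the highest of the 48, while its fold in CB was 1.18 (1.07 to 1.3). Over the 15 alternative settings its S1650b fold ran between 1.57, with both trends removed, and 2.99, with total counts. PSME3 and PSMF1, with values of 164 and 187 in S1650b against 205 and 236 in the control, had folds of 0.803 and 0.794.

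The 4 chaperones that assemble the 20S alpha ring were lower in S1650b. PSMG3 had 75.9 in CB and 38.9 in S1650b, against 63.6 in the control scaled CPM and was 1.63-fold lower (1.5 to 1.78). PSMG2 had 49.5 in CB and 34.2 in S1650b, against 55.3 in the control and was 1.62-fold lower (1.47 to 1.78). PSMG4 had 52.2 in CB and 31.8 in S1650b, against 51 in the control and was 1.6-fold lower (1.46 to 1.77). These 3 were called lower and PSMG1 was just short, with 56.5 in CB and 27.3 in S1650b, against 40.9 in the control and a fold of 0.667 (0.6 to 0.742). With the trends removed PSMG4 stayed called, at 0.537, and PSMG2 and PSMG3 did not, at 0.802 and 0.922. Of the 19S chaperones, PSMD10 (gankyrin) had a fold of 0.736 (0.693 to 0.78), PSMD9 (p27) of 0.797 (0.664 to 0.957) and PSMD5 (S5b) of 1.02 (0.951 to 1.09), and none was called. PSMC3IP, the recombination protein, had 20.3 in CB and 4.92 in S1650b, against 13.9 in the control and was 2.83-fold lower (2.26 to 3.56), on 110 counts in S1650b. Exons of other genes overlap 29.9% of its exon length, and the span of MLX overlaps its own. PSME3IP1 had a fold of 0.858 (0.804 to 0.916).

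Set directly against each other, and at different doses, S1650b had lower values than CB for 42 of 48 members, where 48.8% of all genes and 64.2% of the genes of like level had a fold below 1. In this comparison 1 member was called higher and 21 lower, where 26.3% of all genes tested were called higher and 20.6% lower. The genes of like level gave 14.1% higher and 27.7% lower. The median log2 fold was -0.54, against 0.02 for all genes and -0.24 at like level. With both trends removed 0 members were called higher and 20 lower, with a median of -0.53. Of all genes 20.9% were then called higher and 19.5% lower. Of the 4449 genes of like level, 307 were then called higher and 1158 lower, with a median of -0.23. A fold below 1 was then held by 67.4% of the genes of like level and by 42 of the 48 members. The near-equal counts of members called lower, 21 and 20, hide a change of genes. Of the 21 members, 10 were called in both, and the other 10 of the 20 were called only with the trends removed. The comparison uses the same CB and S1650b libraries as those with the control and is no independent evidence.

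The summed standard subunits held 3931 scaled CPM in S1650b and 6192 in CB, 1.58-fold lower (1.56 to 1.59). PSMC3 was 2.33-fold lower (2.22 to 2.45) in S1650b, PSMB2 2.19-fold lower (2.1 to 2.28) and PSMA7 2-fold lower (1.94 to 2.06). Beyond the standard subunits, the assembly chaperone PSMG1 was 2.07-fold lower (1.87 to 2.29). The other standard subunits called lower were PSMA6, PSMB3, PSMB5, PSMB6, PSMB7, PSMC4, PSMC5, PSMD2, PSMD3, PSMD7, PSMD8 and PSMD13, at folds between 0.488 (PSMB3) and 0.642 (PSMC5). Of the 15 standard subunits called lower, PSMA6, PSMB2, PSMB3, PSMC3, PSMC5 and PSMD13 stayed called with both trends removed, and the folds of the other 9 were then between 0.683 (PSMA7) and 0.809 (PSMC4). PSMD2, the scaffold Rpn1 and the cap subunit with the highest FPKM in each library, had 414 in S1650b and 651 in CB, with 532 in the control scaled CPM. PSMD3 had 248 in S1650b and 395 in CB, with 325 in the control, PSMD7 72.2 in S1650b and 113 in CB, with 85.3 in the control and PSMC5 99.9 in S1650b and 156 in CB, with 126 in the control. For each of these 4 genes the control lay between S1650b and CB. Of the inducible genes PSMB8 and PSME2 were called lower than in CB, at 0.505 and 0.629, whereas PSMB10 and PSME1, at 0.827 and 0.881, came out above 1 with both trends removed. PSME4 was the 1 gene called higher, at 2.21 (2.04 to 2.38), and PSMC6 stood at 1.46 (1.34 to 1.59). With both trends removed PSME4 was not called, at 1.35, and PSMC6 lay below 1, at 0.946. PSMG3, PSMG4 and PSMC3IP were also called lower, at 0.513, 0.608 and 0.243.

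Each inducible subunit replaces 1 standard subunit at its active site, so their ratio within a library does not depend on the library's scaling. These ratios were chosen after the data were seen. The FPKM ratio of PSMB8 to PSMB5 was 0.468 in CB and 0.401 in S1650b, against 0.650 in the control, 1.39 times lower in CB (1.30 to 1.48) and 1.62 times lower in S1650b (1.5 to 1.75). The ratio of PSMB9 to PSMB6 was 0.349 in CB and 0.463 in S1650b, against 0.603 in the control, 1.73 times lower in CB (1.62 to 1.85) and 1.30 times lower in S1650b (1.21 to 1.40). The ratio of PSMB10 to PSMB7 was 0.108 in CB and 0.151 in S1650b, against 0.224 in the control, 2.08 times lower in CB (1.91 to 2.26) and 1.48 times lower in S1650b (1.36 to 1.62). All 3 inducible subunits thus made up a smaller share of their pair in both particle libraries than in the control. In S1650b over CB the ratio change was 0.856 (0.794 to 0.923) for PSMB8, 1.33 (1.23 to 1.43) for PSMB9 and 1.40 (1.27 to 1.54) for PSMB10, so the order of the particle libraries was not shared by the 3 pairs. Removing both trends, which unlike scaling can move such a ratio, gave changes against the control between 0.501 and 0.701 in CB and between 0.595 and 0.797 in S1650b.

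**Figure D3:**
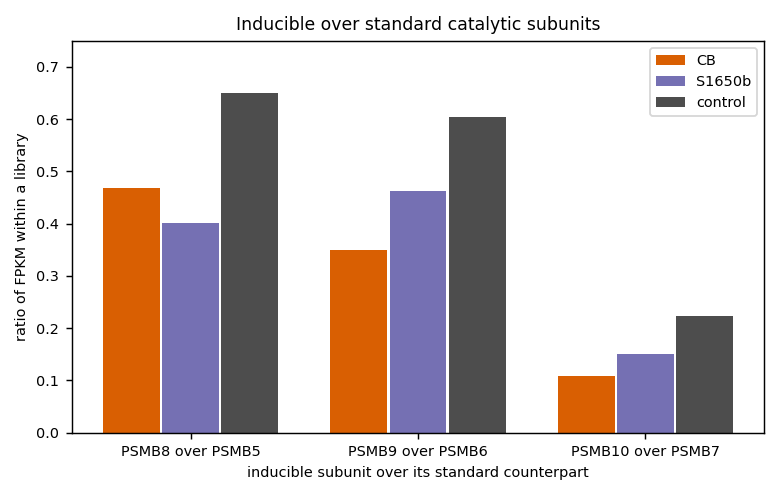
Ratio of FPKM within each library for the inducible subunits PSMB8, PSMB9 and PSMB10 over their standard counterparts PSMB5, PSMB6 and PSMB7, with bars for CB, S1650b and control from 1 library each and no error bars. The control bar is the tallest in each of the 3 pairs, and the lowest bar is S1650b for PSMB8 and CB for the other two.

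The members' folds were related to exon length and GC content. Exon length is the number of bases in any annotated exon of a gene, and GC content is that of its longest annotated transcript. Over the 48 members, log2 fold and log2 exon length had a Pearson's r of 0.537 in S1650b over control and 0.261 in CB over control, and over all genes tested 0.233 and 0.0544. For GC content the values were -0.591 and -0.346 over the members, and -0.384 and -0.0869 over all genes. These correlations run across genes of the same library pairs, which are not independent replicates. The beta subunits, most of them with short exon models, and the long PSME4 lie at opposite ends of this range. The members have a median exon length of 3564.5 bases, against 4566 for all genes, and a median level of 115 scaled CPM, against 21.0. In S1650b over control 8 members moved to the other side of 1 when both trends were removed (PSMA4, PSMC2, PSMC4, PSMD4, PSMD6, PSMD12, PSMD14 and PSMD5). In CB over control none of the 48 did, and all 31 standard subunits stayed above 1, between 1.03 and 1.47.

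**Figure D4:**
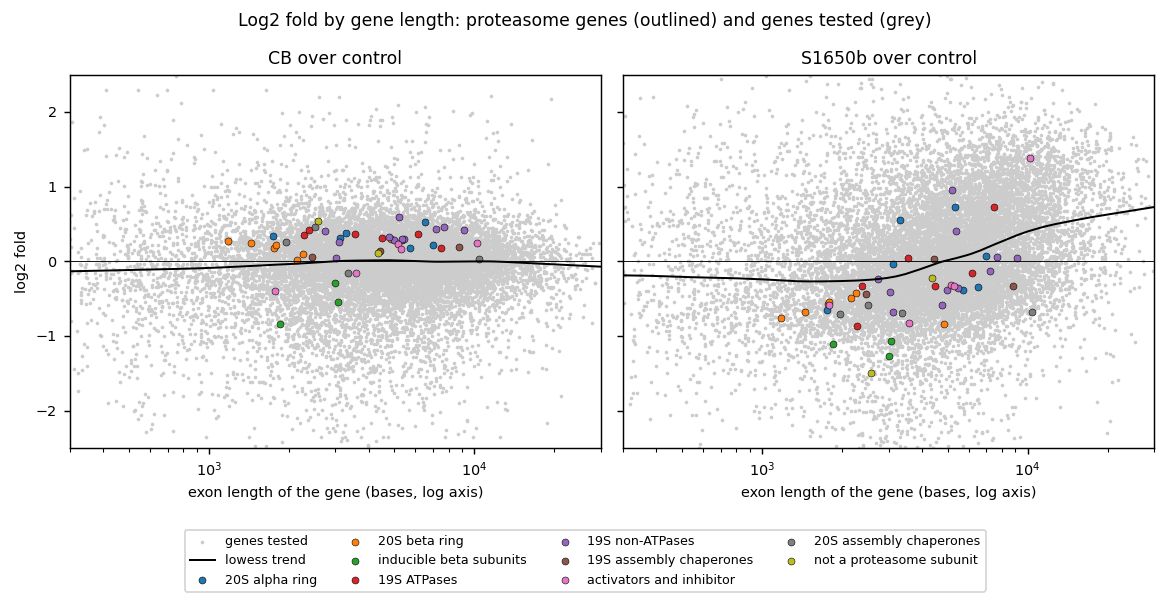
Log2 fold against exon length (bases, log axis) for the proteasome genes (outlined, coloured by role) and the other genes tested (grey, with points beyond 2.5 in either direction not drawn), in CB over control (left) and S1650b over control (right), with the lowess trend over all genes as a line. On the left the trend is nearly flat and the standard subunits lie above it at all lengths. On the right the trend climbs with length, and PSME4 at the long end and most of the beta ring at the short end follow its direction.

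A list of 47 further genes of the ubiquitin and proteasome system, whose symbols the rule does not take in, was read by the same calls, and all 47 passed the filter. In CB 0 were called higher and 2 lower, with a median log2 fold of 0.10. In S1650b against control 8 were called higher and 3 lower, with a median of -0.14. In S1650b against CB 8 were called higher and 3 lower, with a median of -0.20. With both trends removed the balance of calls turned round, to 6 higher and 9 lower for S1650b against control and 4 higher and 13 lower for S1650b against CB. The shares called among all genes are those given above for each comparison.

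Subunits and partners without a PSM symbol followed the standard subunits in CB, with 11 of 12 folds above 1. ADRM1, the ubiquitin receptor Rpn13, had 181 in CB and 106 in S1650b, against 142 in the control scaled CPM and folds of 1.27 (1.21 to 1.33) in CB and 0.742 (0.702 to 0.784) in S1650b. POMP, the chaperone that matures the 20S core, had 151 in CB and 104 in S1650b, against 129 in the control and folds of 1.17 (1.11 to 1.23) and 0.806 (0.762 to 0.853). Both were highest in CB and lowest in S1650b, but with the trends removed the S1650b fold of ADRM1 was above 1, at 1.12. ECPAS, which tethers proteasomes to other compartments, had 109.5 in CB and 198 in S1650b, against 86.6 in the control and was called higher in S1650b at 2.29 (2.16 to 2.42). ZFAND5, a proteasome activator, had 207 in CB and 404 in S1650b, against 259 in the control and was called higher in S1650b at 1.56 (1.51 to 1.62), while its fold in CB was 0.801 (0.769 to 0.835). With the trends removed ECPAS stayed called in S1650b, at 1.7, and ZFAND5 did not, at 1.05. PAAF1, which binds ATPase subunits, was called lower in S1650b than in CB at 0.592 (0.538 to 0.651). ADRM1, at 0.584 (0.554 to 0.615), and ZFAND2A, at 0.667 (0.601 to 0.739), were also called lower than in CB. ECPAS and ZFAND5 were called higher than in CB, at 1.81 and 1.95. With the trends removed, PAAF1 stayed called in that comparison, at 0.458, and the other 4 did not.

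The list for NRF1, which controls subunit transcription in proteasome stress, also holds other factors, NFE2L2 and BACH1 among them. Of its 9 genes 0 were called in CB and 3 were called higher in S1650b, where 22.0% of all genes tested were called higher. NFE2L1 itself was not called. NFE2L1 had 293 in CB and 384 in S1650b, against 386 in the control scaled CPM and was 1.32-fold lower (1.27 to 1.36) in CB, with a fold of 0.995 (0.964 to 1.03) in S1650b. DDI2, the protease that activates NRF1, had 15.7 in CB and 33.3 in S1650b, against 12.7 in the control and a fold of 2.62 (2.27 to 3.04) in S1650b. NFE2L2, encoding the oxidative stress factor NRF2, had 48.8 in CB and 92.5 in S1650b, against 50.6 in the control and folds of 0.966 (0.883 to 1.06) in CB and 1.83 (1.69 to 1.97) in S1650b. BACH1, a repressor at the same elements, had 8.21 in CB and 27.1 in S1650b, against 9.61 in the control and a fold of 2.82 (2.39 to 3.34) in S1650b. The exon lengths of DDI2, NFE2L2 and BACH1 were 12136, 5979 and 7717 bases, against a median of 4566 for all genes tested. With the trends removed the S1650b folds of these 3 genes were 1.56, 1.59 and 1.79.

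Of 6 listed genes of ubiquitin and its activation, 0 were called in CB and UBA6 was the 1 called in S1650b against control. UBB, a gene for polyubiquitin, had 641 in CB and 478 in S1650b, against 652 in the control scaled CPM, and its fold was 0.984 (0.96 to 1.01) in CB and 0.734 (0.715 to 0.753) in S1650b. UBA6, a ubiquitin-activating enzyme, had 22.5 in CB and 52.4 in S1650b, against 23.8 in the control and a fold of 2.2 (1.97 to 2.45) in S1650b, or 1.17 with the trends removed.

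Genes that load proteasome products onto MHC class I and regulate the immunoproteasome had a median fold of 0.747 in CB, with 9 of 11 below 1. IRF1, the interferon-response factor that activates PSMB9 and TAP1, had 66.2 in CB and 74.5 in S1650b, against 115 in the control scaled CPM and was 1.74-fold lower (1.63 to 1.86) in CB and 1.54-fold lower (1.45 to 1.65) in S1650b. It was called lower in both comparisons with the control. TAP1, a subunit of the peptide transporter that shares a promoter region with PSMB9, had 85.8 in CB and 94.5 in S1650b, against 122 in the control and was 1.42-fold lower (1.34 to 1.52) in CB and 1.29-fold lower (1.22 to 1.37) in S1650b. TAP2, its partner, had 63.6 in CB and 53.7 in S1650b, against 55.6 in the control and folds of 1.14 (1.05 to 1.24) and 0.967 (0.89 to 1.05). The class I heavy chains HLA-B and HLA-C and their light chain B2M had CB folds of 0.703, 0.719 and 0.747, and S1650b folds of 0.56, 0.628 and 0.708. All 6 of these folds were below 1, and HLA-B and HLA-C were called lower in S1650b. ERAP1, which trims peptides for class I, had 59.1 in CB and 142 in S1650b, against 89.3 in the control, was 1.51-fold lower (1.4 to 1.63) in CB and had a fold of 1.59 (1.5 to 1.69) in S1650b, so it was called in opposite directions in the particle libraries. ERAP2 had 7.21 in CB and 17.4 in S1650b, against 7.52 in the control and a fold of 2.31 (1.91 to 2.82) in S1650b. With the trends removed, the S1650b folds of ERAP1, HLA-B and HLA-C were 1.01, 0.816 and 0.941 and were not called, whereas B2M was called lower, at 0.518.

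**Figure D5:**
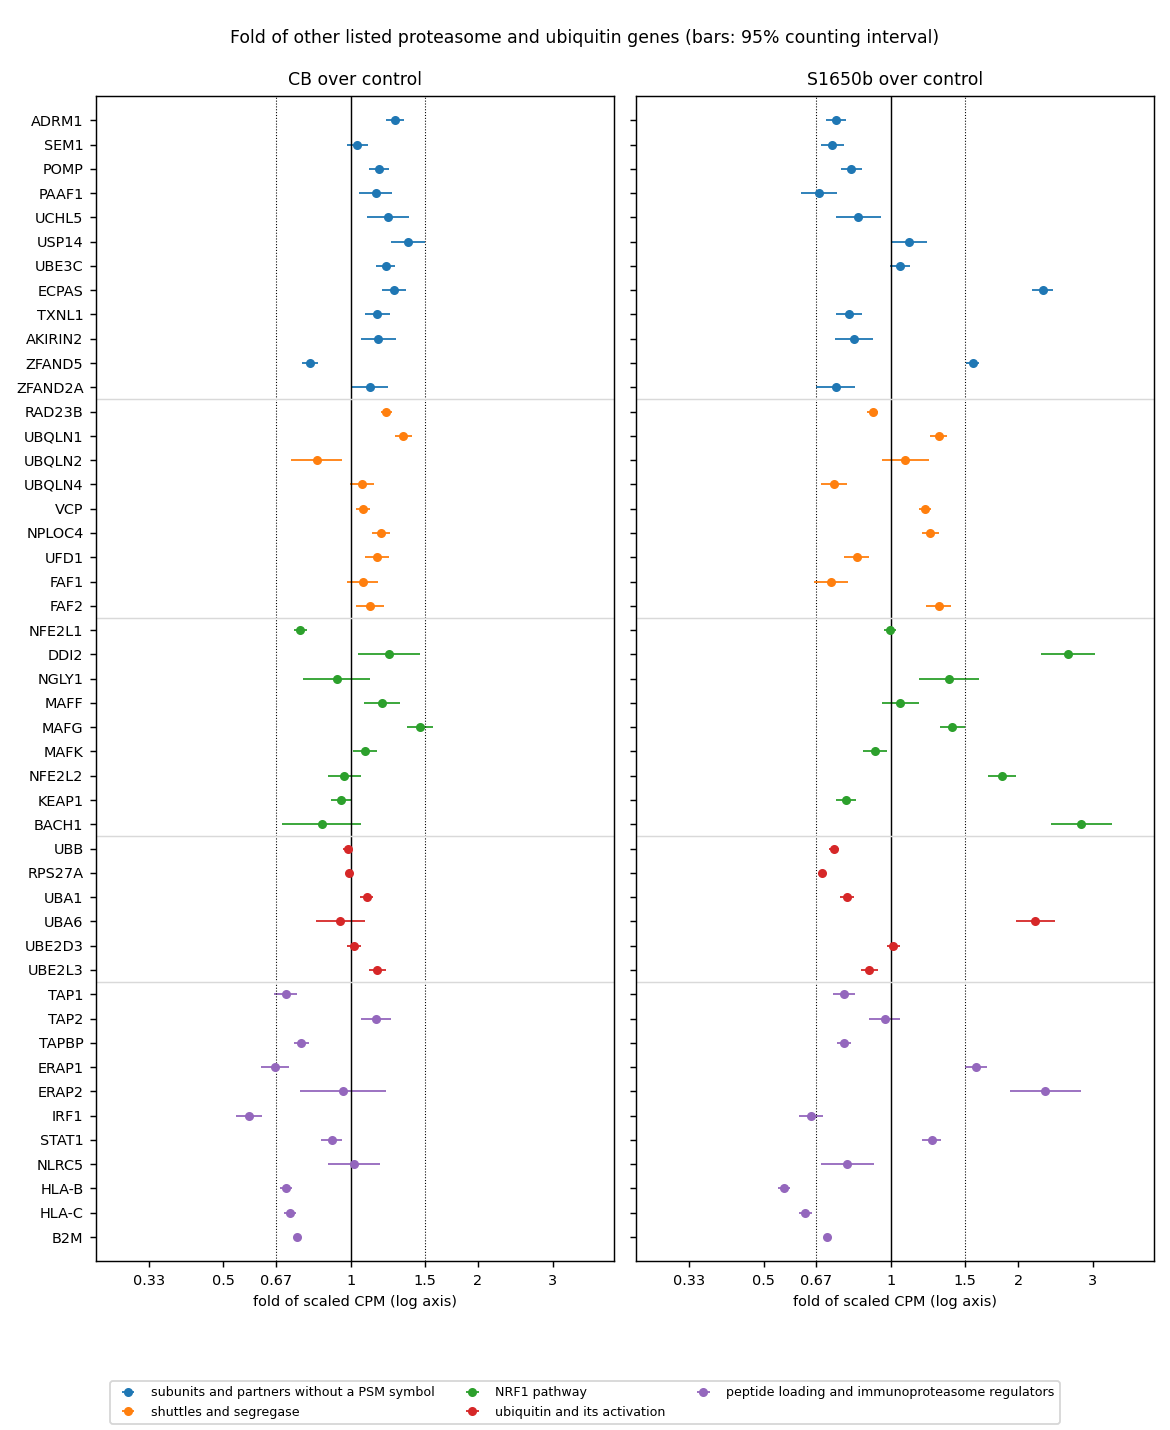
Fold of scaled CPM (log axis) with 95% counting intervals for 47 other listed genes of the ubiquitin and proteasome system in CB over control (left) and S1650b over control (right), 1 library a group, coloured by role, with dotted lines at a fold of 1.5 in each direction. On the left most partners and shuttles lie just above 1 and most peptide-loading genes lie below 1, and on the right DDI2, BACH1, ECPAS, ERAP2 and UBA6 lie beyond 2.

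Several members share exon sequence with other genes, and it is not known if the counting was stranded, so their counts are uncertain. The same limit holds for some of the listed partner genes. Their overlap was 32.3% for TAP2, 28.4% for UBB, 22.0% for IRF1, 20.9% for NFE2L2, 18.9% for HLA-B, 17.2% for ADRM1 and 15.3% for DDI2. Among the members, the overlap covers 75.8% of the exon length of PSMC1, 34.8% of PSMB10, 30.7% of PSMD7, 24.7% of PSMA1, 20.6% of PSMB8 and 19.5% of PSMC5. Genes with counts whose spans overlap include NRDE2 for PSMC1, PSMB9 and PSMB8-AS1 for PSMB8, and FTSJ3 for PSMC5. AC040162.1, whose span overlaps that of PSMB10, held 57 counts in CB and 71 in S1650b, against 68 in the control. PSMB10 itself held 989, 909 and 1730. How reads in the shared exons were counted is not known, so these counts do not show how far the overlap affects PSMB10. Of the members' 44 annotated pseudogenes, adding their counts to their parent genes changed no call count.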

How the data were processed

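RNA-seq of HaCaT cells was compared in 3 libraries, 1 a group, whose total counts of 20417744 to 20946139 set the precision. Per the labels' protocols, Trizol was used for total RNA and a NEBNext Ultra kit for the libraries. The authors deposited counts per Ensembl gene, whole numbers with no normalization, and a table of FPKM values, which the authors normalized to length and depth. CASAVA 1.7 and 2 mouse builds (mm8, mm9) are listed per the submitters' processing notes, whereas all 58735 identifiers occur in GENCODE 29, a human annotation on GRCh38. Aligner, counter and strand setting were not given in the sources used here.

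A minimum of 1 CPM in any library left 14709 genes. Factors by TMM (edgeR 4.0.16, R 4.3.3) were 0.960 in CB and 1.09 in S1650b, against 0.952 in the control. With 1 library a group edgeR's test could not be fitted, so folds carry an exact 95% conditional binomial (Clopper-Pearson) interval from scipy 1.17.1. Reads are not independent molecules, so intervals and the floor of 3 counts cover counting error only. Log2 folds had 0.5 counts added. Trends with exon length and GC content were removed by lowess over 30% of the genes (statsmodels 0.14.6). The steps were tested on simulated data.

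Genes are named where they passed the call in any comparison or were highest or lowest in their role group, with up to 4 called genes of each listed partner group and a few fixed ones. Others are named beside them as part of a full group. A few listed partner and marker genes are not reported here, and the counts of their lists leave them out. The members and lists were chosen with earlier results of these data known. The ratios of subunit pairs, the background of like level and the exact interferon letters were chosen after seeing the data. Promoters are from RefSeq (GRCh38.p14), with no window for PSMA7, PSMB1, PSMB6, PSMB7, PSMD4 and PSMG3. The 15 alternatives cover scaling (4), FPKM, added counts, filters (2), fold thresholds (2), trends (3), pseudogenes and members.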

Additional observations from a re-analysis of the deposited data

How the results depend on the processing

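No paired analysis was possible because each group has 1 library, and no replicate could be left out for the same reason. The 9 summaries of the members (calls in each direction and median log2 fold, for 3 comparisons) were recomputed under 15 alternatives. No median changed sign, and a change of direction was not assessed for the call counts. Of the 135 values, 105 stayed within 1.5 times the count or within the counting tolerance. These include the medians at the other fold thresholds, which a threshold cannot change. The cause of the other 30 was not tested.

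For CB against control, 1 member was called higher and 1 lower. The higher count was 0 with upper quartile scaling, a filter of 5 CPM, the GC trend removed, both trends removed or a fold of 2, and 2 with median of ratios or deposited FPKM. A looser threshold, a log2 fold of 0.32, gave 14 higher and 3 lower, and a fold of 2 gave 0 lower. For S1650b against control (4 higher, 15 lower, median -0.39), the lower count was 7 with total counts (median -0.19), 9 with the length trend removed, 9 with both trends removed (median -0.27), 30 at the looser threshold and 4 at a fold of 2. The higher count was 2 with the GC trend removed and 1 at a fold of 2. For S1650b against CB (1 higher, 21 lower, median -0.54), total counts gave 3 higher, 12 lower and a median of -0.35. The higher count was 2 with upper quartile scaling (median -0.44) or a filter of 5 CPM, 4 at the looser threshold and 0 with both trends removed. The lower count was 37 at the looser threshold and 5 at a fold of 2, and the median was -0.63 with the GC trend removed.

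Total counts moved the median log2 fold of all genes to 0.16 for S1650b against control and 0.21 for S1650b against CB, so the members' medians of -0.19 and -0.35 stand relative to those. Without a filter that median was 0.15 for S1650b against CB, and with upper quartile scaling 0.12. Sides of 1 were also exchanged by PSMB4 and PSMG4 in CB (upper quartile; PSMB4 also at 5 CPM), by PSMA3, PSMC1 and PSMD11 in S1650b against control (total counts), and by PSMA4, PSMD5 and PSME1 in S1650b against CB (total counts). Depth limits PSMA2, PSMA6, PSMD9 and PSMC3IP, which rest on the fewest counts.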
